A study of Homo sapiens with 8 samples.

Results

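The 36 polycomb group genes described here encode subunits, close partners or counterparts of the polycomb repressive complexes. They form a list of gene symbols, drawn up with earlier results of these data known, and were looked up by symbol among 63677 gene identifiers in the count tables, and all 36 symbols were found. Where a symbol had several identifiers (PHF1, RING1, CBX2, CBX8 and KDM2B), the one with the most reads was taken, and the others held 0 reads. RNA was measured in DND-41 and MOLT-4, which are established human lines of T-cell acute lymphoblastic leukaemia (T-ALL) grown in RPMI-1640 medium with serum. The 4 groups were DND-41 with the solvent DMSO, DND-41 with 100 nM ACBI-1, MOLT-4 with DMSO and MOLT-4 with 100 nM ACBI-1, all harvested at 8 h, with 2 libraries in each group. ACBI-1 is a degrader molecule that brings the VHL ubiquitin ligase to SMARCA2, SMARCA4 and PBRM1. A BAF complex, which remodels nucleosomes, runs on either SMARCA2 or SMARCA4 as its motor, and PBRM1 belongs to one form of this complex. The comparisons asked which polycomb transcripts differed after 8 h of the degrader in each line, and which differed between the lines without it.

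Polycomb proteins keep developmental genes silent through a pair of chromatin-modifying complexes. PRC2 methylates histone H3 at the residue written H3K27, while PRC1 ubiquitinates histone H2A and compacts chromatin. BAF complexes are known as their counterpart, evicting polycomb complexes from chromatin, and genes for PRC2 subunits are recurrently mutated or deleted in T-ALL. PRC1 exists as canonical forms, which carry CBX and PHC subunits and bind methylated H3K27, and variant forms, which carry RYBP or YAF2 and are brought to unmethylated CpG-rich promoters by proteins such as KDM2B.

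Promoters of 3 members are printed because the results turn on these genes: the paralogous subunits BCOR and BCORL1 had the largest falls shared by the lines, ranked by the smaller of the 2 changes, and PCGF5 rose in both lines. The sequences are RefSeq promoters on the GRCh38.p14 build, 250 bases before to 50 bases after a listed start, read 5′ to 3′ on the gene's strand, with each CpG in capitals. BCORL1 lies on the plus strand at chrX:129980729-129981028, BCOR on the minus strand at chrX:40177228-40177527 for its first listed start and chrX:40146584-40146883 for its second, and PCGF5 on the plus strand at chr10:91162762-91163061.
BCORL1: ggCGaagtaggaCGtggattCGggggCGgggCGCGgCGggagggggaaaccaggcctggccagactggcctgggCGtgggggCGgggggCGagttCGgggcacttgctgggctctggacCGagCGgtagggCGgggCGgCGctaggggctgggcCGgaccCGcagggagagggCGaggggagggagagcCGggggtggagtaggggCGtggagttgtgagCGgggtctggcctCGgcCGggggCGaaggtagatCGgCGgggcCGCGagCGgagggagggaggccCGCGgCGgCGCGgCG
BCOR first start: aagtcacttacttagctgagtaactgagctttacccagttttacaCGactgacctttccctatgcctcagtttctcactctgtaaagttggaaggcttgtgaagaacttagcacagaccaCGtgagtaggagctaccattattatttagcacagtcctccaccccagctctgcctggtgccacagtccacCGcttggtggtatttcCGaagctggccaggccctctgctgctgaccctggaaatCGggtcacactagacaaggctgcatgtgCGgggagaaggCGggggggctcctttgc
BCOR second start: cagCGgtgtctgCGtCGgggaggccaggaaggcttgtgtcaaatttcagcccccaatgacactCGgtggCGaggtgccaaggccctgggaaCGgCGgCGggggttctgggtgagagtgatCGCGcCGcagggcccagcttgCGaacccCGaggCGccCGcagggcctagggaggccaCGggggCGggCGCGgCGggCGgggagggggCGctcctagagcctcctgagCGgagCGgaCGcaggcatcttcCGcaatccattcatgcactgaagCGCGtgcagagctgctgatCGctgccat
PCGF5 first start: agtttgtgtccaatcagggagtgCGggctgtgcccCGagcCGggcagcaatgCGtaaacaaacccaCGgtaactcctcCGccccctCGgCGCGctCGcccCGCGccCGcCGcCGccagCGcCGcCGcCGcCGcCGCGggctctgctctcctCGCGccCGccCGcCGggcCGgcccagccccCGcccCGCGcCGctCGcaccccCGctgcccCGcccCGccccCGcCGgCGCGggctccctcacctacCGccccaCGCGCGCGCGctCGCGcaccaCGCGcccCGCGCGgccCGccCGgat
The BCORL1 stretch, the first of 2 listed starts, held 36 CpGs, and the second, not printed, held 46. The BCOR starts held 7 and 29. The 4 listed PCGF5 starts held 55, 35, 52 and 5, and only the first is printed. CBX7, whose smaller rise of the lines was 0.46 against 0.41 for PCGF5, is not printed, and its start held 50. Across 35116 RefSeq promoters of this length the median was 14 CpGs, with quartiles of 4 and 28. Of the 36 members, 33 had a listed promoter, and the first listed start of 29 of those 33 held more than 14 CpGs, with a range of 2 to 55 and a median of 29. On both strands, the E-box CACGTG was found in 7.26% of all promoters and, among the 4 stretches above, in the first BCOR start alone, at position −132. The words CCGGAAGT (ETS), TGTGGT (RUNX), TGACGTCA (CRE) and TTTCCCGC or TTTGGCGC (E2F) matched none of those 4 stretches. In all promoters they matched 4.14%, 13.1%, 1.85% and 2.27% in that order. A match describes the letters in this window only.

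The libraries held 19860759 to 20239888 counts each, and 3 counts correspond to 0.137 to 0.165 CPM (counts scaled to a common library size). Log2 fold changes are given ± SE for 2 libraries against 2, and a gene is called where edgeR's quasi-likelihood test gave a Benjamini-Hochberg adjusted p below 0.05 over all genes tested. Nothing in the labels says that the 2 libraries of a group are separate cultures, and the p-values therefore cover only their own, possibly technical, spread. Summed CPM of 10 T-lineage markers was 4860 to 4950 with DMSO and 5080 to 5390 with ACBI-1 in DND-41, and 3280 to 3410 and 2830 to 2840 in MOLT-4. PTCRA, part of the pre-T-cell receptor, was at or near 0 in DND-41. Single T-lineage markers moved with ACBI-1 in both directions, 3 called higher and 5 lower of 9 tested in DND-41 and 1 higher and 7 lower of 10 in MOLT-4. CD3G, a chain of the T-cell receptor complex, rose by 1.64 and 1.11 on the log2 scale, while CD7 fell by 0.98 and 1.39 and the kinase ZAP70 by 0.92 and 1.22. Of 5 B-lineage markers, CD79A, part of the B-cell receptor, stood at 1570 and 1590 CPM in DND-41 with DMSO and at 935 and 979 with ACBI-1, while MS4A1 and PAX5 were at 0 in every library. Myeloid and erythroid marker sums reached at most 0.547 CPM. The sum of 5 stromal or epithelial markers was 281 to 289 CPM with DMSO and 122 to 126 with ACBI-1 in DND-41, and 321 to 391 and 178 to 180 in MOLT-4. Most of it was the intermediate filament gene VIM, which fell by 1.19 and 0.90. The part of these marker changes in the members' results was not tested. In MOLT-4 the collagen gene COL1A1 read 2.20 and 55.4 CPM with DMSO and 0 and 11.4 with ACBI-1, high in both libraries numbered 2, so calls that depend on those libraries are given without them. Mitochondrially encoded genes took 12.1% and 13.2% of counts in DND-41 with DMSO and 15.5% and 11.8% with ACBI-1. In MOLT-4 they took 19.0% and 14.4% with DMSO and 21.3% and 24.6% with ACBI-1, both treated libraries above both controls. Without those genes the member counts in each line were the same, and calls of the difference between lines were gained for PCGF3 (adjusted p = 0.041) and KDM6B (adjusted p = 0.0427), which took the lower members from 7 to 9. In the authors' deposited tables, all 36 members had the same sign as here for DND-41 and the opposite sign for MOLT-4. That MOLT-4 table therefore reads DMSO over ACBI-1 relative to the column labels of the counts, and directions below come from the counts.

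All 36 genes were expressed in both lines, at 3.88 CPM or more in every library. Per kb of exon and with DMSO, the H3K27 methyltransferase EZH2 had the highest level of 35 members with a length in both lines, 41.5 CPM per kb in DND-41 and 52.1 in MOLT-4. PCGF5 and the deubiquitinase BAP1 followed in DND-41, at 38.1 and 32.4 CPM per kb. In MOLT-4 the H2A ubiquitin ligase RING1 came next at 44.8 CPM per kb, and BAP1 after it at 39.9. YAF2 was the lowest of these 35 in both, at 1.70 and 0.879 CPM per kb, and the medians were 9.40 and 11.7. PCGF2 had no length and is not ranked. In MOLT-4 with DMSO it averaged 4.28 CPM, below YAF2 at 9.53 CPM. Library by library, the 4 groups of most members lay close together, with PCGF2, PCGF5, JARID2 and KDM6B as the members whose lines stood furthest apart.

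**Figure D1:**
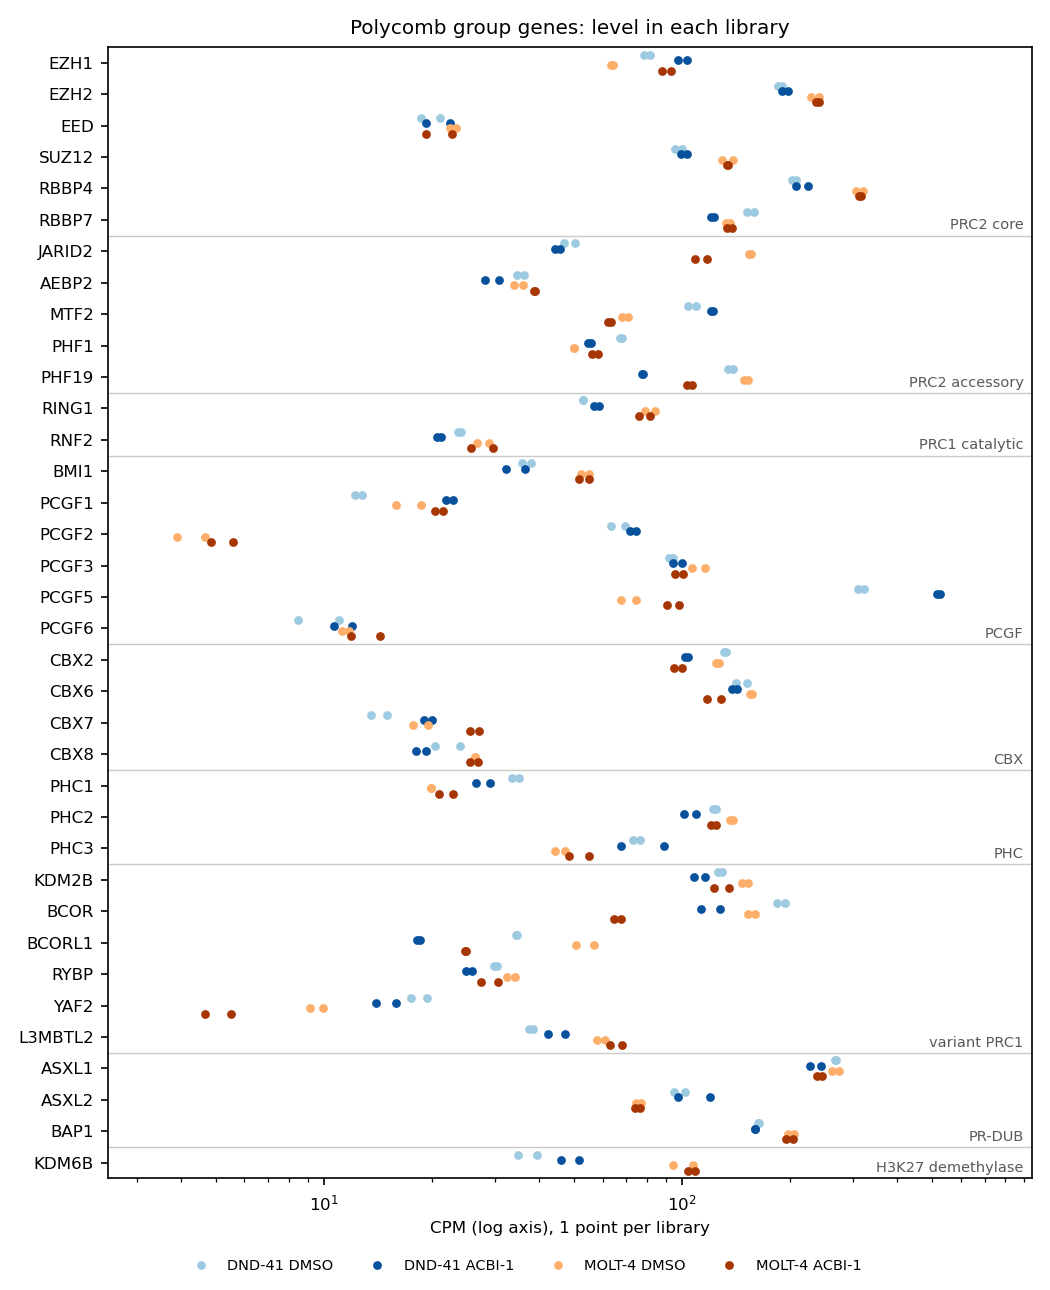
Level of each of the 36 polycomb group genes in CPM on a log axis, 1 point per library, coloured by line and treatment and grouped by role. With DMSO, PCGF2 averages 66.4 CPM in DND-41 and 4.28 CPM in MOLT-4; CPM are not scaled to gene length, so points are compared within a gene.

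In DND-41, ACBI-1 was followed by higher levels of 7 of the 36 members and lower levels of 13, with 16 not called. Over all 14008 genes tested in that line, 20.0% were called higher and 23.2% lower, 43.2% in all, against 20 of 36 members. The members' median log2 fold change was −0.04 against 0.01 for all genes, and their median absolute change was 0.22 against 0.25. The range ran from −0.90 for BCORL1 to 0.85 for PCGF1, so no member reached a change of 2-fold. In bulk RNA, a change in the share of cells that carry a transcript and a change per cell cannot be told apart. Treated and control libraries did not overlap for 28 of 36 members, where 69.6% of all genes did not overlap. The count of lower members was 7 with DESeq2. It also fell without DMSO library 1 or 2, where 1 control remained.

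In MOLT-4, 5 members were higher with ACBI-1, 12 lower and 19 not called. Of 14239 genes tested, 20.7% were called higher and 24.4% lower, 45.1% in all, against 17 of 36 members. The median log2 fold change was −0.01 for the members and 0.00 for all genes, and the median absolute change 0.18 against 0.25. BCOR and BCORL1 fell by more than 2-fold, and the largest rise was 0.50, for EZH1. Groups did not overlap for 24 of 36 members, against 71.8% of all genes. The count of higher members was 3 with DESeq2, 3 without both libraries numbered 2, 3 with library size as the only scaling, and 8 without DMSO library 1.

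**Figure D2:**
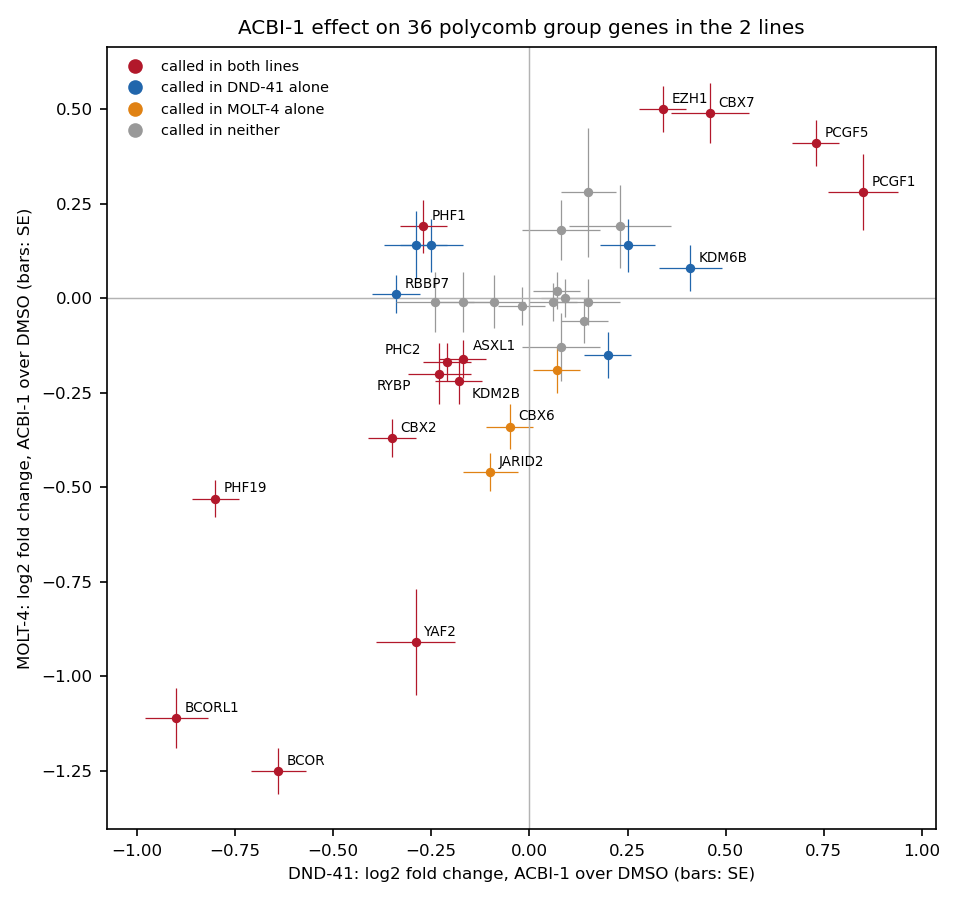
Log2 fold change of ACBI-1 over DMSO for the 36 genes, DND-41 on the horizontal axis and MOLT-4 on the vertical axis, with bars of 1 SE and colours for the lines in which a gene was called. BCOR and BCORL1 lie lowest in MOLT-4, PHF19 and BCORL1 furthest left, and PCGF1 and PCGF5 furthest right.

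Of the 6 PRC2 core subunits, EZH1 was called in both lines, RBBP7 in DND-41 alone and the other four in neither. EZH1, which pairs with the same partners as EZH2, read 81.6 and 78.6 CPM in DND-41 with DMSO and 97.8 and 103 with ACBI-1. In MOLT-4 it read 63.3 and 64.4 CPM with DMSO and 88.2 and 93.5 with ACBI-1. Both treated libraries were above both controls in each line. EZH1 rose by 0.34 ± 0.06 in DND-41 (adjusted p = 0.000465) and by 0.50 ± 0.06 in MOLT-4 (adjusted p = 7.31e-07). EZH2 itself read 185 to 198 CPM in the 4 DND-41 libraries and 229 to 242 in those of MOLT-4, with log2 fold changes of 0.07 and 0.02 and 95% intervals of −0.05 to 0.18 and −0.09 to 0.12. These intervals, and those that follow, are approximate, taken as 1.96 SE on either side. The scaffold SUZ12 gave 0.06 and −0.01, with intervals of −0.05 to 0.18 and −0.11 to 0.10. The H3K27me3-binding subunit EED was the least precise of the core, at 0.08 (−0.11 to 0.28) and −0.13 (−0.30 to 0.05). EZH2, SUZ12 and EED were thus not called in either line, and the intervals of EZH2 and SUZ12 stayed inside 0.18 on either side of 0.

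The histone-binding subunits RBBP4 and RBBP7, close paralogues, differed. RBBP7 read 159 and 152 CPM in DND-41 with DMSO and 123 and 121 with ACBI-1, without overlap, a fall of 0.34 ± 0.06 on the log2 scale (adjusted p = 0.000319). In MOLT-4 it read 136 and 133 CPM with DMSO and 134 and 138 with ACBI-1, an overlapping pair of groups with a log2 fold change of 0.01 (−0.09 to 0.11). RBBP4 gave 0.09 (−0.03 to 0.21) and 0.00 (−0.10 to 0.11). Its 6 annotated pseudogenes held 174 reads over the 8 libraries against 41758 for RBBP4, so few of its reads could have been assigned to them.

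Among the 5 accessory subunits, which steer PRC2 to its sites, PHF19 changed most. PHF19 is a Tudor-domain protein of the polycomb-like family. In DND-41 it read 135 and 139 CPM with DMSO and 78.1 and 77.2 with ACBI-1, and in MOLT-4 153 and 149 CPM with DMSO and 107 and 103 with ACBI-1. The treated libraries were below the controls by far more than the spread within a group. PHF19 fell by 0.80 ± 0.06 (adjusted p = 6.96e-08) and by 0.53 ± 0.05 (adjusted p = 8.72e-08). Its relatives PHF1 and MTF2 behaved otherwise. PHF1 read 67.2 and 67.9 CPM with DMSO and 54.8 and 55.8 with ACBI-1 in DND-41, a fall of 0.27 ± 0.06 (adjusted p = 0.00258). In MOLT-4 the same gene read 49.98 and 49.9 CPM with DMSO and 56.1 and 58.3 with ACBI-1, a rise of 0.19 ± 0.07 (adjusted p = 0.0232). PHF1 was the 1 member called in opposite directions, where 1.68% of the 12859 genes tested in both lines were. The MOLT-4 rise ended without ACBI-1 library 2 (0.17, adjusted p = 0.163), without both libraries numbered 2 (adjusted p = 0.278), with DESeq2 (adjusted p = 0.108) and with library size alone (0.11, adjusted p = 0.349).

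MTF2, the third polycomb-like protein, read 109.8 and 104 CPM with DMSO and 122 and 120.3 with ACBI-1 in DND-41, a rise of 0.20 ± 0.06 (adjusted p = 0.0159). Without DMSO library 1 or 2 the adjusted p was 0.0871 and 0.274. In MOLT-4 it read 68.0 and 70.9 CPM with DMSO and 63.5 and 62.2 with ACBI-1, with a log2 fold change of −0.15 (−0.27 to −0.03) that was not called. JARID2, a catalytically inactive Jumonji protein that recruits PRC2, read 156 and 154 CPM with DMSO and 118 and 109 with ACBI-1 in MOLT-4, and fell by 0.46 ± 0.05 (adjusted p = 1.13e-06). In DND-41, where its level was lower, its log2 fold change was −0.10 (−0.24 to 0.03). AEBP2, a zinc finger cofactor of PRC2, fell by 0.25 ± 0.08 in DND-41, from 34.6 and 36.2 CPM to 30.9 and 28.1 (adjusted p = 0.0163). That call ended without ACBI-1 library 2 (adjusted p = 0.0632), without DMSO library 2 (adjusted p = 0.152) and with DESeq2 (adjusted p = 0.0922). In MOLT-4, AEBP2 gave 0.14 (0.00 to 0.28) and was not called.

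The ubiquitin ligases RING1 and RNF2, which form the catalytic heart of PRC1, were called in neither line. RING1 gave 0.14 (0.02 to 0.27) in DND-41 and −0.06 (−0.18 to 0.06) in MOLT-4, and RNF2 gave −0.17 (−0.33 to −0.02) and −0.01 (−0.17 to 0.15). Of the 6 PCGF proteins, the partners that define the forms of PRC1, 2 rose in both lines. PCGF5, which marks one of the variant complexes, read 322 and 311 CPM in DND-41 with DMSO and 525 and 515 with ACBI-1, and 74.5 and 67.4 CPM in MOLT-4 with DMSO and 90.8 and 98.4 with ACBI-1. It rose by 0.73 ± 0.06 (adjusted p = 1.43e-07) and by 0.41 ± 0.06 (adjusted p = 2.12e-05). PCGF1, the PCGF protein of the BCOR complex, read 12.2 and 12.8 CPM in DND-41 with DMSO and 22.9 and 21.9 with ACBI-1, a rise of 0.85 ± 0.09 (adjusted p = 3.28e-06). In MOLT-4 it read 18.7 and 15.8 CPM with DMSO and 21.5 and 20.4 with ACBI-1, a rise of 0.28 ± 0.10 (adjusted p = 0.0230). The treated libraries of both genes were above the controls in both lines. The MOLT-4 rise of PCGF1 ended without ACBI-1 library 1 (adjusted p = 0.0878), without DMSO library 2 (0.17, adjusted p = 0.221), without both libraries numbered 2 (adjusted p = 0.321), with DESeq2 (adjusted p = 0.152) and with library size alone (adjusted p = 0.141).

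PCGF3, a close relative of PCGF5, fell by 0.19 ± 0.06 in MOLT-4, from 107 and 116 CPM to 95.6 and 100.5 (adjusted p = 0.0113). This call ended without ACBI-1 library 1 (adjusted p = 0.158), without DMSO library 2 (−0.12, adjusted p = 0.142), without both libraries numbered 2 (adjusted p = 0.203) and with DESeq2 (adjusted p = 0.0659). In DND-41 PCGF3 gave 0.07 (−0.05 to 0.20). BMI1, the PCGF protein of canonical PRC1, gave −0.09 (−0.24 to 0.06) and −0.01 (−0.14 to 0.12), and no read was assigned to the overlapping readthrough gene COMMD3-BMI1. PCGF2, its paralogue, gave 0.15 (0.02 to 0.28) in DND-41 and 0.28 (−0.06 to 0.61) in MOLT-4, where it was read at 3.88 to 5.56 CPM. PCGF6, which belongs to the E2F6 complex, gave 0.23 (−0.03 to 0.49) and 0.19 (−0.04 to 0.41).

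The CBX proteins, which read H3K27 methylation for canonical PRC1, moved in different directions. CBX7 read 15.04 and 13.6 CPM in DND-41 with DMSO and 19.1 and 20.0 with ACBI-1, a rise of 0.46 ± 0.10 (adjusted p = 0.00117). Its MOLT-4 values were 17.7 and 19.6 CPM with DMSO and 25.6 and 27.03 with ACBI-1, a rise of 0.49 ± 0.08 (adjusted p = 8.72e-05). CBX2 went the other way and by a like amount in the 2 lines. It read 131 and 133 CPM in DND-41 with DMSO and 102 and 104 with ACBI-1, and 127 and 125 CPM in MOLT-4 with DMSO and 100.1 and 94.9 with ACBI-1. The falls were 0.35 ± 0.06 (adjusted p = 0.000239) and 0.37 ± 0.05 (adjusted p = 1.17e-05), and neither gene had overlapping groups. CBX6 fell by 0.34 ± 0.06 in MOLT-4, from 155 and 157 CPM to 129 and 117 (adjusted p = 4.44e-05), and gave −0.05 (−0.17 to 0.07) in DND-41. CBX8 gave −0.24 (−0.43 to −0.05) in DND-41, with an adjusted p of 0.0604, and −0.01 (−0.16 to 0.14) in MOLT-4.

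The PHC proteins polymerise through their SAM domain within canonical PRC1. PHC2 read 122 and 125 CPM with DMSO and 102 and 109 with ACBI-1 in DND-41, and 139 and 136 CPM with DMSO and 120.3 and 124 with ACBI-1 in MOLT-4. It fell by 0.21 ± 0.06 (adjusted p = 0.0119) and by 0.17 ± 0.05 (adjusted p = 0.00929). These small falls were not stable. In DND-41 the adjusted p was 0.0759 without DMSO library 1, 0.130 without DMSO library 2 and 0.0604 with library size alone, and in MOLT-4 it was 0.142 without ACBI-1 library 1, 0.0909 without both libraries numbered 2 and 0.0531 with DESeq2. PHC1 fell by 0.29 ± 0.08 in DND-41, from 33.5 and 35.1 CPM to 26.6 and 29.2 (adjusted p = 0.00801). Its adjusted p was 0.0860 without DMSO library 2 and 0.0514 with DESeq2, and its MOLT-4 value was 0.14 (−0.03 to 0.31). PHC3 gave 0.08 (−0.11 to 0.27) and 0.18 (0.03 to 0.32) without a call. Its ACBI-1 libraries of DND-41 stood apart, at 67.4 and 88.9 CPM, around controls of 73.2 and 76.5, and without ACBI-1 library 1 its value was 0.26 (adjusted p = 0.000482).

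As grouped here, variant PRC1 held BCOR, BCORL1, KDM2B, RYBP, YAF2 and L3MBTL2, while the PCGF proteins of variant complexes were counted apart. Of those PCGF proteins, PCGF1 and PCGF5 were called higher in both lines. The 6 subunits of the group held the largest change of any member in each line. In each line 5 of them were called lower, against 23.2% of all genes in DND-41 and 24.4% in MOLT-4. With DESeq2, 2 of these 5 remained called lower in DND-41 (BCOR and BCORL1) and 4 in MOLT-4 (all but RYBP). BCOR, a corepressor that assembles with PCGF1 and KDM2B, read 185 and 194 CPM in DND-41 with DMSO and 113 and 127 with ACBI-1. The MOLT-4 libraries gave 153 and 160.4 CPM with DMSO and 67.4 and 64.7 with ACBI-1. BCOR fell by 0.64 ± 0.07 (adjusted p = 2.31e-06) and by 1.25 ± 0.06 (adjusted p = 7.19e-13). BCORL1, which can take its place in the complex, read 34.4 and 34.7 CPM in DND-41 with DMSO and 18.2 and 18.6 with ACBI-1. The MOLT-4 values were 56.9 and 50.7 CPM with DMSO and 25.0 and 24.8 with ACBI-1. The falls of BCORL1 were 0.90 ± 0.08 (adjusted p = 3.44e-07) and 1.11 ± 0.08 (adjusted p = 6.12e-10). Neither BCOR nor BCORL1 had overlapping groups in either line, and both were called lower in both lines under every alternative run. Within this complex the called directions thus differed, with PCGF1 higher and BCOR, BCORL1 and KDM2B lower in both lines. With DESeq2 the MOLT-4 rise of PCGF1 (adjusted p = 0.152) and the DND-41 fall of KDM2B (adjusted p = 0.0753) were not called.

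**Figure D3:**
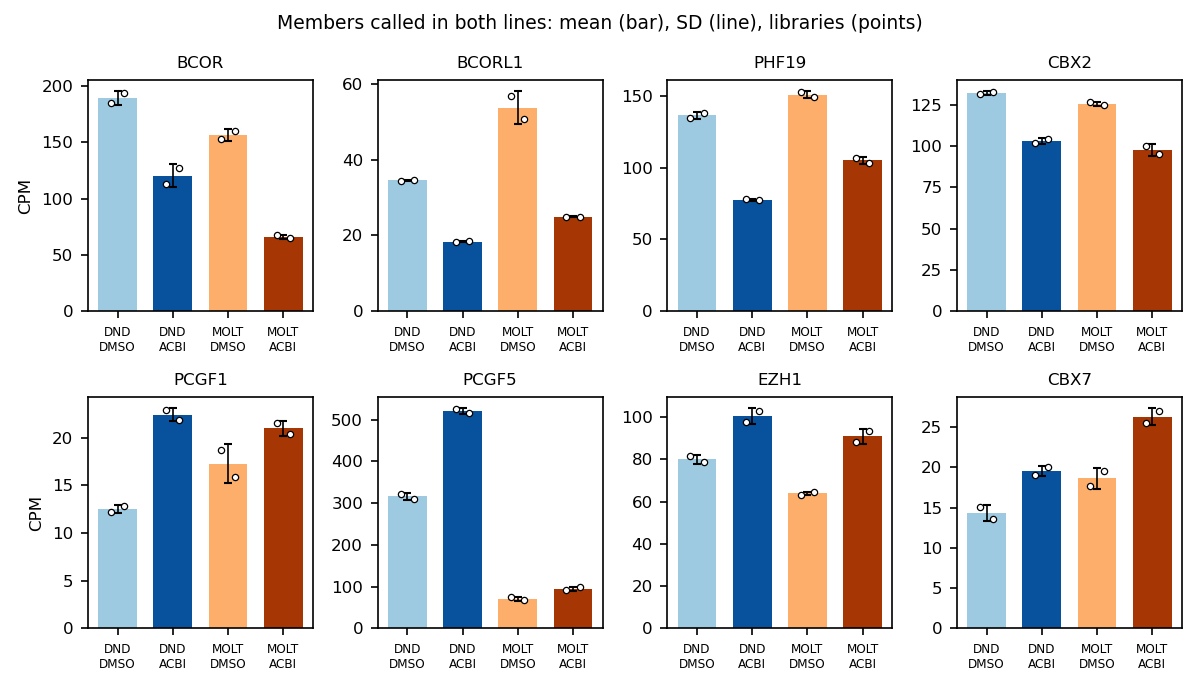
Level in CPM of BCOR, BCORL1, PHF19, CBX2, PCGF1, PCGF5, EZH1 and CBX7 in DND-41 and MOLT-4 with DMSO or ACBI-1. These were picked from the 13 members called in the same direction in both lines. PHC2, KDM2B, RYBP, YAF2 and ASXL1 are not drawn. Bars are means of 2 libraries, lines the SD and points the libraries. BCOR in MOLT-4 drops from 153 and 160.4 CPM to 67.4 and 64.7, while PCGF5 in DND-41 climbs from 322 and 311 CPM to 525 and 515.

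YAF2 and RYBP are interchangeable H2A-binding subunits of variant PRC1. YAF2 read 9.92 and 9.14 CPM with DMSO and 4.66 and 5.51 with ACBI-1 in MOLT-4, and fell by 0.91 ± 0.14 (adjusted p = 2.18e-05). In DND-41 it read 19.4 and 17.5 CPM with DMSO and 15.9 and 13.9 with ACBI-1, a fall of 0.29 ± 0.10 (adjusted p = 0.0286). The DND-41 call of YAF2 ended without ACBI-1 library 2 (−0.20, adjusted p = 0.115), without DMSO library 1 (adjusted p = 0.217), with DESeq2 (adjusted p = 0.136) and with no filter (adjusted p = 0.0603). RYBP fell by 0.23 ± 0.08 in DND-41 (adjusted p = 0.0223), from 29.9 and 30.4 CPM to 25.8 and 25.0, and by 0.20 ± 0.08 in MOLT-4 (adjusted p = 0.0364), from 34.3 and 32.4 CPM to 27.5 and 30.6. Both RYBP calls were fragile. In DND-41 the adjusted p was 0.0964 and 0.154 without either DMSO library and 0.136 with DESeq2. In MOLT-4 it was 0.354 without ACBI-1 library 1 (−0.12), 0.153 without DMSO library 1 and 0.213 with DESeq2.

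KDM2B, the demethylase whose CXXC finger binds unmethylated CpGs, fell by 0.18 ± 0.06 in DND-41, from 126 and 129.7 CPM to 108 and 116 (adjusted p = 0.0267). In MOLT-4 it fell by 0.22 ± 0.06, from 148 and 152 CPM to 136 and 123 (adjusted p = 0.00360). The DND-41 call ended without ACBI-1 library 1 (adjusted p = 0.0661) or either DMSO library (adjusted p of 0.124 and 0.231). With DESeq2 that adjusted p was 0.0753 and with library size alone 0.112. The MOLT-4 call ended without ACBI-1 library 2 (−0.14, adjusted p = 0.127) and without both libraries numbered 2 (−0.13, adjusted p = 0.322). L3MBTL2, an MBT-domain protein of the E2F6 complex, was the group's 1 rise. It went from 37.5 and 38.3 CPM to 47.0 and 42.4 in DND-41, by 0.25 ± 0.07 (adjusted p = 0.0121), and gave 0.14 (0.01 to 0.27) in MOLT-4. Its call ended without ACBI-1 library 1 (adjusted p = 0.0575) or either DMSO library (0.113 and 0.0603), and the adjusted p was 0.0618 with DESeq2 and 0.0503 with no filter.

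The PR-DUB complex removes the ubiquitin that PRC1 places on H2A. Its enzyme BAP1 read 159.5 to 164 CPM in the DND-41 libraries and 196 to 206 in the MOLT-4 libraries, with log2 fold changes of −0.02 (−0.13 to 0.09) and −0.02 (−0.12 to 0.08). ASXL1, which activates BAP1, fell by 0.17 ± 0.06 in DND-41, from 268 and 269 CPM to 228 and 245 (adjusted p = 0.0311). In MOLT-4 it fell by 0.16 ± 0.05, from 263 and 275 CPM to 246 and 238 (adjusted p = 0.0231). The DND-41 call ended without ACBI-1 library 1 (adjusted p = 0.0625) or either DMSO library (0.194 and 0.228). It also ended with DESeq2 (adjusted p = 0.0599) and with library size alone (adjusted p = 0.126). In MOLT-4 the adjusted p was 0.0574 without ACBI-1 library 1, 0.189 without ACBI-1 library 2, 0.131 without DMSO library 2 (−0.12) and 0.413 without both libraries numbered 2 (−0.11). Its paralogue ASXL2 gave 0.15 (−0.01 to 0.32) and −0.01 (−0.13 to 0.10). KDM6B, an H3K27 demethylase that opposes PRC2, rose by 0.41 ± 0.08 in DND-41, from 39.3 and 34.8 CPM to 45.8 and 51.6 (adjusted p = 0.000907). In MOLT-4 KDM6B read 107 and 94.4 CPM with DMSO and 109 and 104 with ACBI-1, overlapping groups with a log2 fold change of 0.08 (−0.04 to 0.20).

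Counted over both lines, 4 members were called higher in each (EZH1, PCGF1, PCGF5 and CBX7) and 9 lower in each (PHF19, CBX2, PHC2, KDM2B, BCOR, BCORL1, RYBP, YAF2 and ASXL1). With DESeq2, PCGF1, PHC2, KDM2B, RYBP, YAF2 and ASXL1 dropped out of these shared calls. EZH1, PCGF5, CBX7, PHF19, CBX2, BCOR and BCORL1 stayed called in both lines under every alternative run. Shared rises were 4 of the 7 in DND-41 and 4 of the 5 in MOLT-4, and shared falls 9 of 13 and 9 of 12. Among all 12859 genes tested in both lines, 12% were called higher in both and 15.6% lower in both. A further 6 members were called in DND-41 alone, with rises of MTF2, L3MBTL2 and KDM6B and falls of RBBP7, AEBP2 and PHC1, and 3 in MOLT-4 alone, the falls of JARID2, PCGF3 and CBX6. A call in a single line is not in itself a difference between the lines. By the edgeR interaction test described below, L3MBTL2 (−0.09, adjusted p = 0.607), KDM6B (−0.31, 0.0657) and PCGF3 (−0.24, 0.0692) were not called. Neither line gave a call for 13 members: EZH2, EED, SUZ12, RBBP4, RING1, RNF2, BMI1, PCGF2, PCGF6, CBX8, PHC3, ASXL2 and BAP1. The shares of all genes called in a single line or in neither were not counted, so these numbers describe the members only. Across the 36 members the effects in the 2 lines had Pearson's r = 0.734 and Spearman's rho = 0.612, and across all 12859 genes 0.677 and 0.621. Genes within a library are not independent replicates, so these values carry no test.

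Without the degrader, the lines differed in most polycomb genes. With DMSO, 19 of the 36 members were higher in MOLT-4 and 11 lower, where 34.7% of 14868 genes tested were higher and 32.7% lower (67.4% in all, against 30 of 36 members). The members' median log2 difference, MOLT-4 over DND-41, was 0.18 against 0.01 for all genes. PCGF2, the BMI1 paralogue, read 63.5 and 69.3 CPM in DND-41 and 3.88 and 4.67 in MOLT-4, a log2 difference of −3.95 ± 0.10 (adjusted p = 4.65e-17). PCGF5 had 322 and 311 CPM in DND-41 against 74.5 and 67.4 in MOLT-4, a difference of −2.16 ± 0.06 (adjusted p = 7.84e-17). JARID2 and KDM6B were the members more than 2-fold higher in MOLT-4. JARID2 read 46.9 and 50.3 CPM in DND-41 and 156 and 154 in MOLT-4 (1.67 ± 0.05, adjusted p = 2.16e-15), and KDM6B 39.3 and 34.8 against 107 and 94.4 (1.44 ± 0.07, adjusted p = 1.45e-12). Groups did not overlap for 34 of 36 members, against 82.9% of all genes.

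By role, the PRC2 core was mostly higher in MOLT-4, with EZH2 at 0.33 ± 0.05, SUZ12 at 0.45 ± 0.05, RBBP4 at 0.60 ± 0.05 and EED at 0.20 ± 0.08. EZH1 (−0.33 ± 0.06) and RBBP7 (−0.21 ± 0.05) were lower there. RING1 and BMI1 were higher in MOLT-4 by 0.62 ± 0.06 and 0.53 ± 0.07, while PHC1, PHC3 and YAF2 were lower, at −0.79 ± 0.07, −0.71 ± 0.06 and −0.95 ± 0.10. BCOR and BCORL1 differed in opposite directions, at −0.27 ± 0.05 and 0.64 ± 0.07. The scaling of the libraries mattered here: with library size alone, which moved the median of all genes to −0.09, 12 members were higher and 12 lower. The calls of EED, PHF19, RNF2, CBX8 and PHC2 ended on leaving out 1 of the libraries. EED was at adjusted p = 0.381 without DND-41 DMSO library 2 and 0.121 without MOLT-4 DMSO library 2. PHF19 had 0.167, 0.0628 and 0.0535 without DND-41 library 1, DND-41 library 2 and MOLT-4 library 1. RNF2 had 0.0778 without DND-41 library 2 and 0.104 without MOLT-4 library 1, CBX8 had 0.269 without DND-41 library 2, and PHC2 had 0.105 and 0.0521 without DND-41 libraries 1 and 2. Without both MOLT-4 libraries numbered 2, the calls of EED (adjusted p = 0.21), RBBP7 (0.0612), PHF19 (0.0539) and CBX8 (0.0634) ended.

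**Figure D4:**
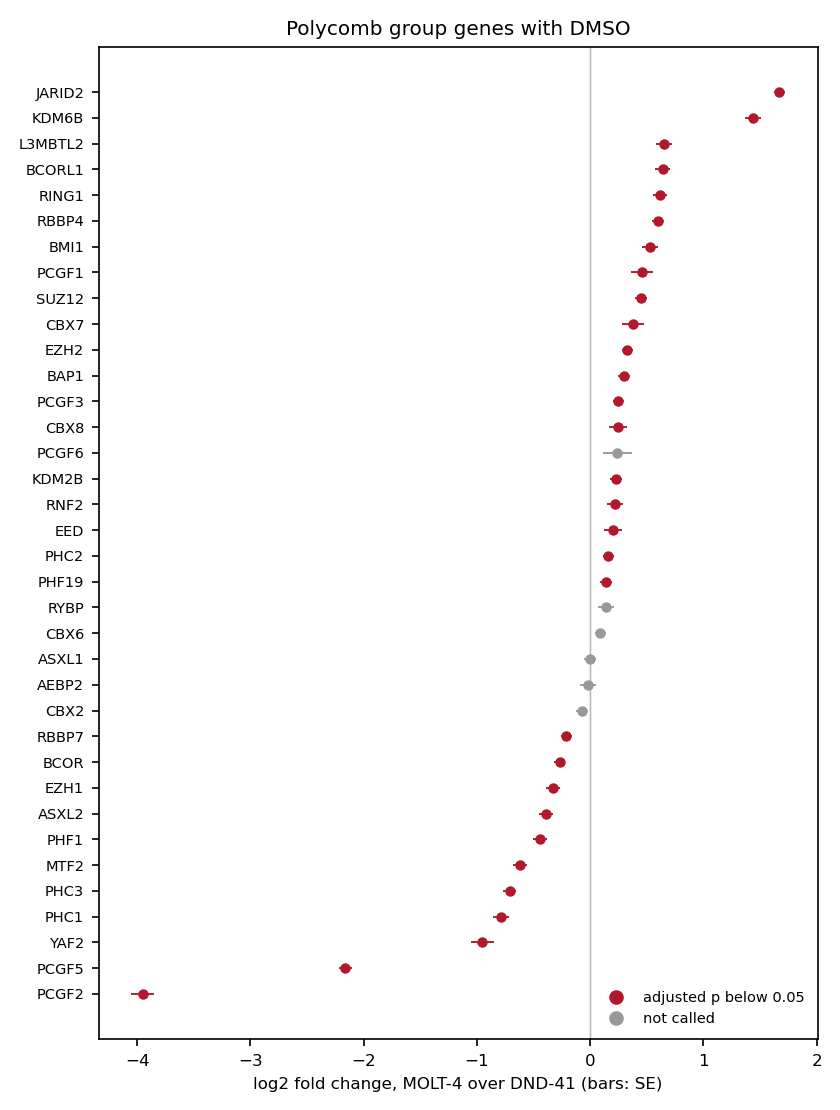
Log2 difference with DMSO, MOLT-4 over DND-41, for the 36 genes in order of size, with bars of 1 SE, in red where the adjusted p was below 0.05 and grey elsewhere. PCGF2 (−3.95) and PCGF5 (−2.16) stand far below the others, and JARID2 (1.67) and KDM6B (1.44) above them.

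Whether the response to ACBI-1 itself differed between the lines was tested as the interaction of line and treatment, MOLT-4 minus DND-41, over all 8 libraries. These tests use the same libraries as the comparisons above. Of the 36 members 12 were called, 5 with a higher log2 change in MOLT-4 and 7 with a lower one, where 7.18% and 6.17% of 15498 genes tested were, 13.3% in all. BCOR, which fell in both lines, fell further in MOLT-4, with a difference of −0.59 ± 0.09 (adjusted p = 0.000161). PHF1 differed by 0.48 ± 0.08 (adjusted p = 0.000496), a fall in DND-41 against a rise in MOLT-4. BCOR and PHF1 were the 2 differences called under every alternative run. All 5 PRC2 accessory subunits among the members were in the 12. The log2 change in MOLT-4 was higher for AEBP2, PHF19 and PHF1 and lower for JARID2 and MTF2. PHF19 fell in both lines, and less in MOLT-4. BCORL1 was not called (−0.20 ± 0.11, adjusted p = 0.273), nor were EZH1 (0.18 ± 0.08, adjusted p = 0.182), CBX7 (0.05 ± 0.13, adjusted p = 0.898) and CBX2 (−0.01 ± 0.08, adjusted p = 1).

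Many of these calls ended when 1 library was left out, which leaves 1 library in a group. The estimates kept their sign. Without DND-41 DMSO library 2, PHF19 went from 0.29 to 0.28 and PHC1 from 0.44 to 0.42. Without MOLT-4 ACBI-1 library 1, YAF2 went from −0.60 to −0.47. The count of lower members went from 7 to 3 without DND-41 DMSO library 1, DND-41 DMSO library 2, MOLT-4 ACBI-1 library 2 or MOLT-4 DMSO library 1. The count of higher members went from 5 to 2 without DND-41 DMSO library 2 or MOLT-4 DMSO library 2, and to 3 without MOLT-4 ACBI-1 library 1. With library size alone, which moved the median of all genes to −0.12, 1 member was called higher and 9 lower, and without both MOLT-4 libraries numbered 2 the counts were 1 and 3.

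**Figure D5:**
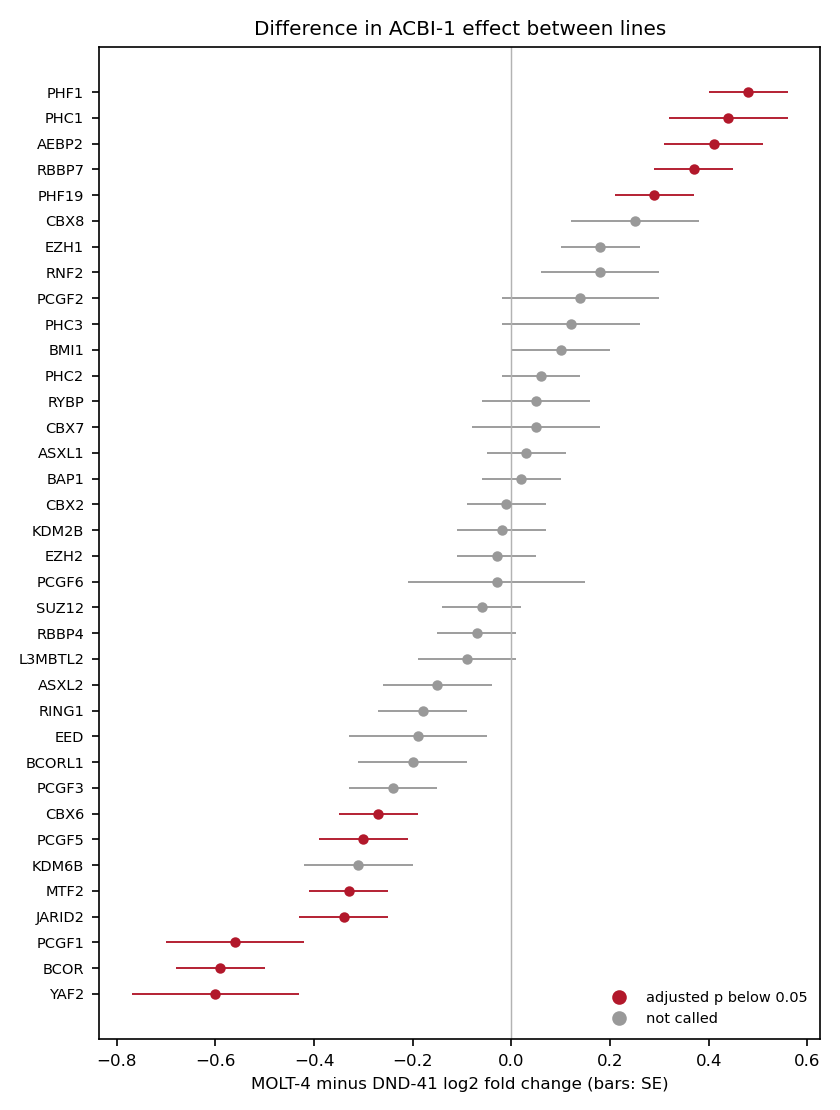
Difference in the log2 effect of ACBI-1 between the lines, MOLT-4 minus DND-41, for the 36 genes in order of size, with bars of 1 SE, in red where the adjusted p was below 0.05 and grey elsewhere. YAF2 (−0.60), BCOR (−0.59) and PCGF1 (−0.56) lie at the low end and PHF1 (0.48) and PHC1 (0.44) at the high end.

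A list of 38 further polycomb partners held 32 genes tested in DND-41, of which 7 rose and 10 fell, where 20.0% of all genes were called higher and 23.2% lower. In MOLT-4, 34 were tested, of which 11 rose and 9 fell, where 20.7% and 24.4% of all genes were called. Their medians were −0.01 and 0.05, against 0.01 and 0.00 for all genes. EPOP, listed under its older symbol C17orf96, is an accessory subunit of PRC2. It read 77.1 and 79.0 CPM in DND-41 with DMSO and 104 and 112 with ACBI-1, a rise of 0.49 ± 0.06 (adjusted p = 2.23e-05). MOLT-4 had 62.4 and 61.7 CPM with DMSO and 33.1 and 30.7 with ACBI-1, a fall of 0.96 ± 0.07 (adjusted p = 1.27e-09). The difference between lines was −1.43 ± 0.09 (adjusted p = 4.37e-09), larger in size than that of any of the 36 members. MBD5, a methyl-CpG-binding-domain protein that joins PR-DUB, rose in both lines, by 0.74 ± 0.09 and 0.83 ± 0.09. From 21.4 and 25.1 CPM it went to 36.4 and 40.2 in DND-41, and from 15.4 and 14.8 to 27.7 and 26.0 in MOLT-4.

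Its relative MBD6 was the third of the largest rises in DND-41 (0.43 ± 0.06), after EPOP, and the largest falls there were those of L3MBTL1 (−0.43 ± 0.12), DCAF7 (−0.34 ± 0.06) and the casein kinase subunit CSNK2A2 (−0.33 ± 0.06). The L3MBTL1 call ended without DMSO library 1 (−0.29, adjusted p = 0.178) and with DESeq2 (adjusted p = 0.0581). In MOLT-4 the MBT-domain gene SFMBT1 (0.68 ± 0.07) and SCML2 (0.62 ± 0.07), which encodes a PRC1-associated protein, followed MBD5. SCML2 was at 0 in all 4 DND-41 libraries and at 30.6 to 47.7 CPM in MOLT-4. The H2A deubiquitinase USP16 fell by 0.67 ± 0.07 in MOLT-4, and AUTS2, a partner of PCGF5, by 0.60 ± 0.10. In DND-41, USP16 (−0.32 ± 0.07) and AUTS2 (−0.30 ± 0.06) were also called lower and SFMBT1 (0.26 ± 0.08) higher. In MOLT-4, MBD6 (0.39 ± 0.05) was also called higher, and DCAF7 (−0.17 ± 0.06) and CSNK2A2 (−0.25 ± 0.05) lower. L3MBTL1 was not called in MOLT-4 (−0.13 ± 0.13).

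Among 81 genes listed as known polycomb targets, most were too low to test: 15 were tested in DND-41 and 15 in MOLT-4. In DND-41, 1 rose and 3 fell, where 43.2% of all genes were called, and in MOLT-4, 1 rose and 4 fell, where 45.1% were. The median of the tested genes was −0.05 in each line. HOXD12 was the rise in both, from 1.71 and 1.45 CPM to 3.78 and 3.56 in DND-41 (1.23 ± 0.22) and from 2.47 and 2.29 to 5.56 and 4.57 in MOLT-4 (1.09 ± 0.20). Treated libraries of HOXD12 were above the controls in each line, at levels of a few CPM. IRX3, a homeobox gene, fell in both lines, from 242 and 239.9 CPM to 120.2 and 127 in DND-41 (−0.95 ± 0.06) and from 95.1 and 99.0 to 65.6 and 68.9 in MOLT-4 (−0.53 ± 0.06). IRX3 in MOLT-4 is outside the rule for naming genes and is given because it was called in both lines. IRX5 (−0.57 ± 0.07) and HOXD13 (−0.31 ± 0.10) were the other falls in DND-41. HOXD13 was not called without ACBI-1 library 2 (adjusted p = 0.104), without DMSO library 2 (adjusted p = 0.150) or with DESeq2 (adjusted p = 0.119).

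In MOLT-4, PAX6 went from 35.1 and 30.4 CPM to 7.41 and 5.89, a fall of 2.30 ± 0.11, with controls and treated libraries far apart. FOXA2 went from 3.46 and 3.38 CPM to 0.423 and 0.275, a fall of 3.27 ± 0.34. CDKN1C, at 0.892 and 0.596 CPM with DMSO, fell by 1.18 ± 0.46 (adjusted p = 0.0417). Its call was lost on leaving out any 1 of the 4 MOLT-4 libraries, with adjusted p of 0.234 and 0.195 without ACBI-1 libraries 1 and 2 and 0.352 and 0.0785 without DMSO libraries 1 and 2. With DESeq2 the adjusted p of CDKN1C was 0.3. The counts measure RNA alone, and neither polycomb protein levels nor histone marks were measured in these libraries.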

How the data were processed

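Total RNA of DND-41 and MOLT-4 cells was sequenced as strand-specific, paired-end libraries on the DNBSEQ platform, in 4 groups of 2, taken from the labels. Counts per gene are whole numbers and were deposited by the authors without normalization. The submitters' processing notes name STAR 2.5.2a, featureCounts, DESeq2 1.12.4 and the hg19 build; the annotation and strand setting were not given in the sources used here, so reads of overlapping genes on opposite strands may not be separated. Log2 fold changes, p-values and 2 score columns (mean normalized count, test statistic) stand in further tables deposited by the authors, per the file headers. From those tables only signs and adjusted p-values were compared, and the scores were not used. The authors' DESeq2 adjusted p was below 0.05 for 14 of the 36 members in DND-41 and 12 in MOLT-4. Here edgeR called 20 and 17.

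The members and gene lists were chosen with earlier results of these data known. Counts were tested with edgeR 4.0.16 in R 4.3.3: filterByExpr at a minimum count of 10, TMM scaling and the quasi-likelihood F test, adjusted after Benjamini and Hochberg over all genes tested, at a threshold of 0.05. Each line was fitted alone, the lines with DMSO together, and the interaction over 8 libraries. SEs were obtained from the fold change and its F statistic. CPM are over TMM effective library sizes of all 8 libraries. Exon lengths for values per kb come from GENCODE by gene identifier, on a later build than hg19, and were found for 35 members, all but PCGF2. All 36 members are named, and of the partner and target lists the up to 3 called rises and 3 called falls of largest size per line. Alternatives were DESeq2 1.42.0, other size factors, library size alone, no filter or a stricter one, all 8 libraries in 1 fit, a replicate block, leaving out each library in turn, and 0.01 as the threshold. Leaving out mitochondrially encoded genes, or both MOLT-4 libraries numbered 2, was chosen after seeing the data. On simulated counts, 200 genes were changed, 100 of them by 0.5 on the log2 scale. Of those 100, edgeR recovered 69% in the DND-41 comparison over 14008 genes and 59% in MOLT-4 over 14239. It recovered 61% between lines over 14868 and 41% for the interaction over 15498. False calls of edgeR were 6.59%, 8%, 6.62% and 8.7% of calls, each above the threshold of 0.05. On the same counts and in the same order, DESeq2 recovered 51%, 44%, 52% and 33%. Its false calls were 0.781%, 2.52%, 1.71% and 4.12% of calls. In the data far more genes were called, 43.2% in DND-41 and 13.3% for the interaction, so these rates need not hold there.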

Additional observations from a re-analysis of the deposited data

Results flagged for a closer look

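For 12 polycomb group genes the response to ACBI-1 differed between the lines by the interaction test (edgeR, adjusted p below 0.05), as MOLT-4 minus DND-41 on the log2 scale. Higher in MOLT-4 were RBBP7 by 0.37 (adjusted p = 0.003), AEBP2 by 0.41 (0.0121), PHF1 by 0.48 (0.000496), PHF19 by 0.29 (0.0159) and PHC1 by 0.44 (0.0157). Lower in MOLT-4 were JARID2 at −0.34 (adjusted p = 0.0146), MTF2 at −0.33 (0.011), PCGF1 at −0.56 (0.00938), PCGF5 at −0.30 (0.0278), CBX6 at −0.27 (0.0371), BCOR at −0.59 (0.000161) and YAF2 at −0.60 (0.0259). PHF19, PCGF1, PCGF5, BCOR and YAF2 were called in the same direction in both lines, so their differences are in size. PHF1 was called in opposite directions.

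Many of these calls end when 1 library is left out, which leaves 1 library in a group. The estimates kept their sign. Without both MOLT-4 libraries numbered 2, PHC1 went from 0.44 to 0.48 and YAF2 from −0.60 to −0.80. In the same fit RBBP7 went from 0.37 to 0.30 and CBX6 from −0.27 to −0.22. AEBP2 reached an adjusted p of 0.0734 without DND-41 DMSO library 2, JARID2 0.12 without DND-41 DMSO library 1, MTF2 0.0897 without DND-41 DMSO library 2, and PHF19 0.0818 without the same library. PHC1 reached 0.0934 and YAF2 0.169 without MOLT-4 ACBI-1 library 1, PCGF1 0.0576 without DND-41 DMSO library 1, PCGF5 0.186 without MOLT-4 ACBI-1 library 1, and CBX6 0.307 without both MOLT-4 libraries numbered 2. Without that pair, RBBP7 was at 0.124, JARID2 at 0.153, AEBP2 at 0.187, MTF2 at 0.152, PHF19 at 0.166, PHC1 at 0.0758 and YAF2 at 0.0534, so these calls also ended.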

How the results depend on the processing

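Every called member kept its sign under all alternatives run. Of 20 members called in DND-41, 11 stayed called under every alternative. The same held for 10 of 17 in MOLT-4, 22 of 30 between the lines with DMSO, and 2 of 12 for the difference in effect. Members without a call could also gain one. A replicate block added calls of CBX8 (lower), PCGF2 and ASXL2 (both higher) in DND-41, and of MTF2 (lower) and PHC3 (higher) in MOLT-4. In DND-41 the 13 lower members became 7 with DESeq2 and 7 at a threshold of 0.01. In MOLT-4 the 5 higher members became 3 with library size alone, 3 with DESeq2, 3 at a threshold of 0.01 and 3 without both libraries numbered 2. Between the lines with DMSO, the 19 higher members became 12 with library size alone, which shifts the median of all genes to −0.09. For the difference, the 5 higher members became 1 with library size alone, 2 at a threshold of 0.01 and 1 without both MOLT-4 libraries numbered 2, and the 7 lower ones 2 at 0.01 and 3 without that pair. The cause was not tested.

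Leaving out 1 library at a time gave 5 to 10 higher and 8 to 12 lower members in DND-41, 4 to 8 and 8 to 12 in MOLT-4, 14 to 19 and 11 to 11 between the lines, and 2 to 6 and 3 to 9 for the difference. A lone remaining library was taken to vary as the other groups do. With library size alone the calls in MOLT-4 were 3 higher and 13 lower, with 12 and 12 between the lines and 1 and 9 for the difference. Over all genes, the share of MOLT-4 calls that were higher went from 45.9% to 31.2%, and that of the difference from 53.8% to 26.1%.

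Replicate numbers are shared between groups, but the labels do not say that they pair the libraries. Deviations of same-numbered libraries had correlations of 0.168 in DND-41 and 0.269 in MOLT-4 over 10190 genes, from 2 numbers only. With a replicate block, 9 members were higher and 14 lower in DND-41, 6 and 13 in MOLT-4, 19 and 11 between the lines, and 5 and 9 for the difference. With 2 libraries a group, changes under about 0.2 on the log2 scale were mostly not separable from the spread.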
